A study of Mus musculus with 30 samples.

Results

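Imprinted genes that act on growth, other than Igf2, were followed in the sclera of young mice. The genes were H19, Dlk1, Meg3, Plagl1, Mest, Cdkn1c, Peg3, Grb10 and Ndn. A gene was measured where a transcript cluster of the array, a set of probes along the same transcript, carried its symbol alone in the platform's annotation, and the cluster with the highest mean over the arrays stood for it. Of the 9 genes, 8 had such a cluster, among 19938 genes measured in this way on the array. H19 had none and was not analysed here. Gene positions below are those of RefSeq on GRCm38.p6.

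An imprinted gene is expressed mainly from the copy inherited from 1 parent, and the choice is set by DNA methylation laid down in the egg or the sperm. Dlk1, Plagl1, Mest, Peg3 and Ndn are expressed from the paternal copy, and Meg3, Cdkn1c and, in most tissues outside the brain, Grb10 from the maternal copy. Many of these genes are strongly expressed in the fetus and are known to decline in several organs as the young animal grows. The sclera is the collagen-rich outer wall of the eye, made by fibroblasts, and it enlarges with the eye after birth.

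The sclera of each of 30 mice of the albino inbred strain Balb/cJ was measured on a Mouse Gene 1.0 ST array, with 6 mice for each of 5 ages. The ages were 1, 2, 3, 6 and 8 weeks after birth, each array held the RNA of 1 mouse, and no group was treated. The labels give strain and age only, so sex and litter could not be taken into account. By the study's methods the mice came from the same family, so they may be related and not fully independent. The p-values measure the spread between these 6 samples of an age. Values are log2 signals as deposited, so that a difference of 1 is a doubling, and signals are compared between ages within a gene and not between genes.

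Replicate 4 of week 2 equalled the mean of the other 5 week 2 arrays in all 35556 transcript clusters, with a largest difference of 8e-05. For the other 29 arrays, the corresponding difference reached at least 1.9 in some cluster. The mean of week 6 replicates 1, 2, 3 and 5 likewise equalled that of replicates 4 and 6, within 7.5e-05. The deviations from the week means therefore held 23 independent directions instead of 25. Means ± SD of week 2 are given over the 5 other arrays (n = 5), and the fit used all 30 arrays as planned. Without the exact relations, no call of any of these 8 genes changed in the 7 comparisons.

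The marker genes of scleral fibroblasts and matrix, such as Col1a1, Lum and Dcn, had a mean log2 signal of 8.73 to 10.7 in every array. Markers of tissues next to the sclera were also present and moved with age. The mean of 25 striated muscle genes had a median over arrays of 10.3 in week 1, and the medians of weeks 2, 3, 6 and 8 were 6.53, 6.37, 9.10 and 9.53. The mean of 18 photoreceptor genes had its highest median, 9.09, in week 1 and ranged from 7.04 to 9.92 among the 6 arrays of that week. In week 2 its median was 6.04. In these whole-tissue samples, fewer cells of a type and less RNA per cell cannot be told apart.

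Promoter windows from RefSeq (GRCm38.p6, 250 bases before to 50 after a start) were found for 7 of the 8 genes, 11 windows in all, and none was found for Cdkn1c. They are shown for the 4 genes with the largest difference between week 8 and week 1 among those with a window, because all 4 were called lower at that age. Capitals mark motif matches on either strand, and a window without capitals held none of the 3 motifs searched.
Mest, chr6:30737800-30738099, plus strand: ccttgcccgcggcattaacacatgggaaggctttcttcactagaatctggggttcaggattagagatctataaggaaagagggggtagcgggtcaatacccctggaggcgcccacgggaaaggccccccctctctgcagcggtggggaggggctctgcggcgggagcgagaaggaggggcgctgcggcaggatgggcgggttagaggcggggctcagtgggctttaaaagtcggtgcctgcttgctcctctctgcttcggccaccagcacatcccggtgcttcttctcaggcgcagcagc
Plagl1, chr10:13090582-13090881, plus strand: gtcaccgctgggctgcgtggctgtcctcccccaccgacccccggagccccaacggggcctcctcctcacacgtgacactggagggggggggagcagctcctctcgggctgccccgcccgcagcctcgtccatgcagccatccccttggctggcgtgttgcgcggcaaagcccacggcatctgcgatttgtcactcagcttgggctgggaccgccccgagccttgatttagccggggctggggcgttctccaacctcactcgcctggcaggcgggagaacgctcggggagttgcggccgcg
Meg3, chr12:109540746-109541045, plus strand: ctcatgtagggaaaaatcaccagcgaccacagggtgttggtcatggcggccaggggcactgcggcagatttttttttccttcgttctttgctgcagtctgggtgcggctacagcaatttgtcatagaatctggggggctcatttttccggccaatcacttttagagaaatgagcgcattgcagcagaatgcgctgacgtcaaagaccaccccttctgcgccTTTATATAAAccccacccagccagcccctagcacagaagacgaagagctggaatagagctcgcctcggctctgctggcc
Peg3, chr7:6730370-6730669, minus strand: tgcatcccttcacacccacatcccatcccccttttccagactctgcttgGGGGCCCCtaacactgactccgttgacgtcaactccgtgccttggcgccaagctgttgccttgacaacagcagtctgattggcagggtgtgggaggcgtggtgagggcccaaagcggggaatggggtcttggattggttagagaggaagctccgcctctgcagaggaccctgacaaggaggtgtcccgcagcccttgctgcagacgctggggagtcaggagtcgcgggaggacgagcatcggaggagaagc
The motifs were GGGGCCCC, a GC-rich octamer that reads the same on both strands, GCCATNTT, a form of the site of the zinc finger protein YY1, and the TATA box TATAAA. Among all 32851 windows of 300 bases, 1.08% held the first, 6.05% the second and 13.6% the third. The Peg3 window held GGGGCCCC and the Meg3 window held TATAAA on each strand, in overlapping matches. No other of the 11 windows held any of them, which says only that these letters were not found there. CG pairs numbered 17 in the Mest window printed, 26 in Plagl1, 13 in Meg3 and 13 in Peg3, against a median of 7 over all windows. Of all windows, 31.4%, 16.9%, 37.9% and 37.9% held as many or more. Mest and Meg3 had further windows that are not printed. Those of Mest, from chr6:30733256 and chr6:30737803, held 8 and 17 CG pairs. That of Meg3, from chr12:109545148, held 1, and 94.6% of all windows held as many or more.

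Between week 1 and week 2, 7 of the 8 genes fell at least 2-fold with a Benjamini-Hochberg adjusted p of 0.05 or less in limma, the rule for a call. Mest, Meg3, Peg3, Plagl1, Grb10, Ndn and Cdkn1c were called lower, and their week 2 arrays all lay below their week 1 arrays. Over all transcript clusters, 7.73% were called lower, 3.82% were called higher and 15.5% had week 2 arrays all below those of week 1. The median log2 difference over the 8 genes was -1.73, and over all transcript clusters it was 0.06. Dlk1 was the exception. The spread of an array, as the interquartile range of its log2 signals over all clusters, also moved with age, being 2.60 to 2.79 in week 1, 2.22 to 2.56 in week 2, 2.71 to 2.80 in week 3, 2.26 to 2.64 in week 6 and 2.33 to 2.67 in week 8. With this spread as a covariate the 7 genes were still called lower, with the log2 difference of Mest at -1.71 and that of Plagl1 at -1.14. The ranges of spread did not overlap between weeks 1 and 2, weeks 2 and 3, or weeks 3 and 6. In these comparisons spread and age cannot be told apart, so a call kept or lost with this covariate does not separate them.

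**Figure D1:**
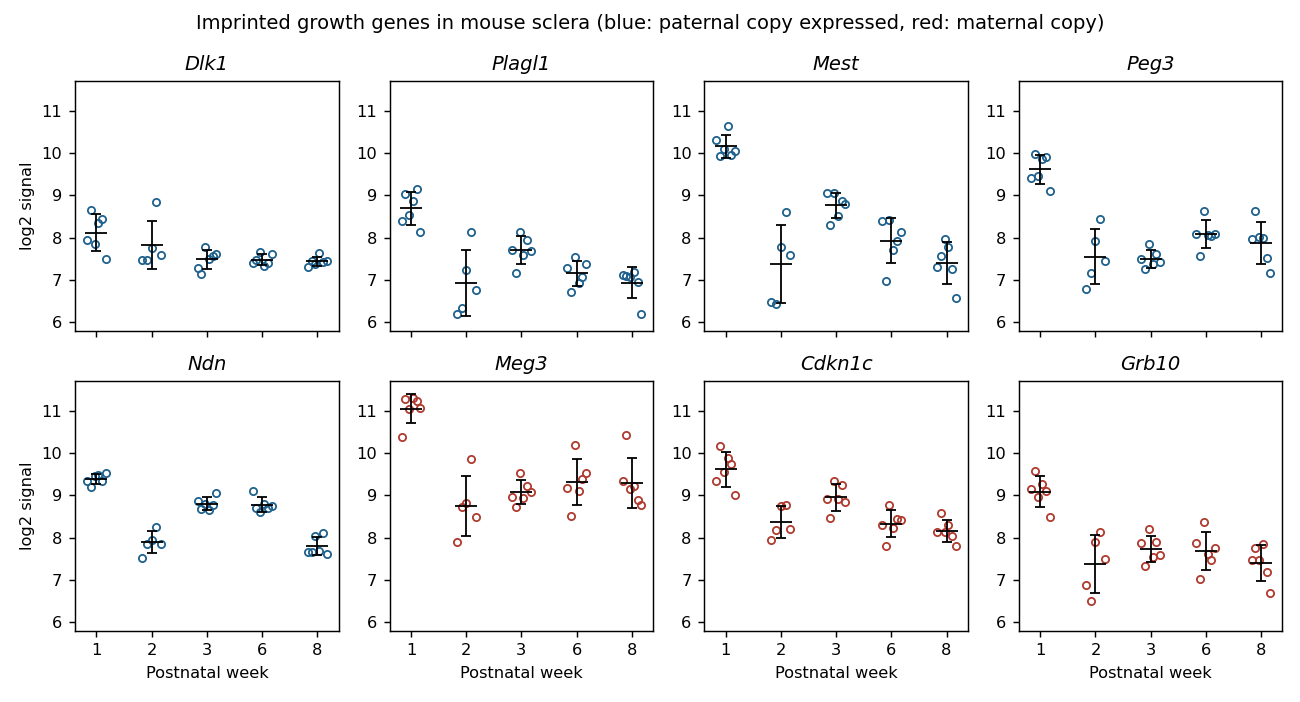
The log2 signal of 8 imprinted growth genes is plotted by postnatal week, with a circle for each array and a black bar for the mean and SD (n = 6, and n = 5 in week 2). Genes expressed from the paternal copy are in blue and those from the maternal copy in red (Grb10 outside the brain). Week 1 was the highest week of every gene, and Ndn was also high in weeks 3 and 6.

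Mest, also called Peg1 (chr6:30733506-30748466), encodes a protein of the alpha/beta hydrolase fold and is expressed from the paternal copy in mesoderm of the embryo. It ranged from 9.92 to 10.6 with a median of 10.1 in week 1. In week 2 the 5 arrays read 6.43, 6.49, 7.59, 7.77 and 8.60. The groups lay more than 1 log2 unit apart, although the week 2 arrays spread over more than 2 units. The fall was 6.86-fold (log2 difference -2.78, SE 0.28, limma adjusted p = 5.67e-09), the largest of the 8 genes.

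Meg3 is a maternally expressed long non-coding RNA. Its week 1 arrays ranged from 10.4 to 11.3 with a median of 11.1. The week 2 arrays read 7.91, 8.49, 8.72, 8.82 and 9.85. Its fall was 4.88-fold (log2 difference -2.29, SE 0.27, limma adjusted p = 6.09e-08), and the highest week 2 array stayed below the lowest week 1 array.

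Peg3 (chr7:6703892-6730462) encodes a zinc finger protein expressed from the paternal copy. Its mean went from 9.62 ± 0.34 (SD, n = 6) to 7.55 ± 0.64 (SD, n = 5), a fall of 4.19-fold. Plagl1 (chr10:13090832-13131694), a zinc finger transcription factor that arrests the cell cycle, went from 8.69 ± 0.40 (SD, n = 6) to 6.93 ± 0.78 (SD, n = 5), 3.39-fold lower. Grb10 (chr11:11930499-12037428), an adaptor that binds the insulin and IGF1 receptors and restrains growth, fell 3.26-fold. These genes differ in role, and both genes that promote and genes that restrain growth were among the 7 that fell.

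Ndn (chr7:62348277-62349928) encodes necdin, a MAGE family protein expressed from the paternal copy and best known in neurons. It had the smallest spread between arrays of the 7 in week 1, at 9.21 to 9.53, and in week 2 the arrays read 7.53, 7.86, 7.86, 7.95 and 8.26. The arrays of the 2 weeks lay apart by nearly a log2 unit. The fall was 2.83-fold (SE 0.11 on the log2 scale, limma adjusted p = 2.97e-11). Cdkn1c (chr7:143458339-143461059), which encodes the cyclin-dependent kinase inhibitor p57, fell 2.38-fold from 9.62 ± 0.41 (SD, n = 6) to 8.36 ± 0.37 (SD, n = 5).

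Dlk1 encodes a membrane protein related to the Notch ligands that holds back the differentiation of preadipocytes and other precursors. It ranged from 7.50 to 8.64 in week 1, and its week 2 arrays read 7.47, 7.48, 7.60, 7.76 and 8.83. The weeks overlapped, and the 8.83 of week 2 replicate 5 was above every week 1 array. The log2 difference was -0.29 (SE 0.18, limma adjusted p = 0.148). Without that array, the difference was -0.49 with an adjusted p of 0.00368, and without week 1 replicate 6 it was -0.42 with 0.0378, both under 2-fold.

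From week 1 to week 8, the same 7 genes were called lower, against 4.8% of all transcript clusters called lower and 2.4% higher. Mest was 6.72-fold lower at 7.41 ± 0.49 (SD, n = 6), Plagl1 3.38-fold, Meg3 3.35-fold, Peg3 3.33-fold, Grb10 3.22-fold, Ndn 3.01-fold and Cdkn1c 2.73-fold. Arrays of the weeks did not overlap for 6 of the 7, the later ones being lower, as in 11.4% of all clusters. Meg3 was the other, since week 8 replicate 2 read 10.4. Dlk1 was 1.60-fold lower (adjusted p = 0.00251), which is under the fold required, and its 6 arrays in week 8 lay between 7.31 and 7.63. The median log2 difference of the 8 genes was -1.71, against 0.02 for all clusters. These comparisons share the week 1 arrays with those for week 2.

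**Figure D2:**
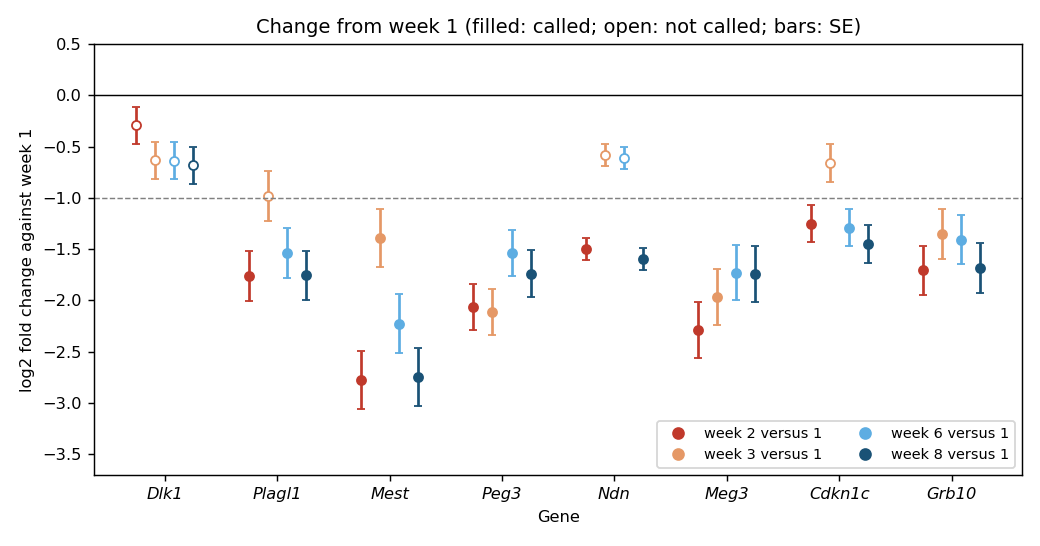
The log2 difference from week 1 is plotted for each gene, with a point for each later week, bars for the SE of the limma fit and a dashed line at a 2-fold fall. Filled points were called. All points lie below 0, and those of Dlk1 stay above the line.

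Fewer of the genes were called in the steps after week 2. From week 2 to week 3, 1 of the 8 genes was called higher and none lower, against 2.67% and 1.72% of all clusters, and the median log2 difference was 0.47. Mest rose 2.62-fold to 8.76 ± 0.30 (SD, n = 6; adjusted p = 0.000273), with week 3 arrays of 8.31 to 9.06 that overlapped the highest of week 2. With the spread of each array as a covariate, the rise of Mest was 0.15 on the log2 scale with an adjusted p of 0.856. Peg3 and Dlk1 had log2 differences of -0.05 and -0.34, and neither passed (adjusted p = 0.875 and 0.112). Under quantile normalization the limma adjusted p of Dlk1 was 0.0161. Plagl1 was 1.71-fold higher (adjusted p = 0.00942, but 0.946 with the covariate) and joined Mest in a call when week 2 replicate 5 was left out, at a log2 difference of 1.01.

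Against week 1, 4 genes were called lower in week 3, namely Peg3 at 4.33-fold, Meg3 at 3.91-fold, Mest at 2.62-fold and Grb10 at 2.55-fold, against 4.45% of all clusters called lower and 2.71% higher. Plagl1, at 1.98-fold, stood just outside and was called without week 1 replicate 1, 3 or 6, or week 3 replicate 3 or 5. It was also called under quantile normalization (adjusted p = 0.00157) and with the array spread as covariate, at -1.08 (adjusted p = 0.000253). Cdkn1c was 1.58-fold and Dlk1 1.55-fold lower and Ndn had a log2 difference of -0.59, each with an adjusted p of 0.00468 or less. Thus all 8 passed the adjusted p, and 6 had week 3 arrays all below those of week 1, against 10.5% of all clusters.

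No gene was called from week 3 to week 6, with 3.68% of all clusters called lower and 3.9% higher. On adjusted p alone, Mest at 1.78-fold and Cdkn1c at 1.54-fold were lower (adjusted p = 0.0141 and 0.00487) and Peg3 at 1.49-fold was higher (adjusted p = 0.0316). None of the 3 passed in every alternative. With the array spread as covariate the log2 difference of Mest was 0.14 (adjusted p = 0.746) and that of Cdkn1c -0.48 (adjusted p = 0.142). Mest also had an adjusted p of 0.0541 without week 6 replicate 2. Peg3 had 0.0703 under median centring and 0.0713 with the exact relations between arrays taken out. Without week 3 replicate 2, 4 or 6 or week 6 replicate 3, Peg3 had 0.0514 to 0.0896. Plagl1, 1.46-fold lower, did not pass (limma adjusted p = 0.0545). It had 0.0289 under median centring, 0.0112 in the fit of the 2 weeks compared and 0.0376 with the replicate block. Over clusters above the median signal it had 0.05. Without week 3 replicate 2 it had 0.0276, without week 6 replicate 3 0.0388, and with the array spread as covariate 0.973. Between week 6 and week 8 no gene was called either, with 2.67% of clusters lower and 1.11% higher, and Ndn alone passed the adjusted p. Against week 1, 6 genes were called lower in week 6, against 3.61% of all clusters called lower and 2.52% higher. Their week 6 arrays and those of Ndn all lay below those of week 1, as held for 8.38% of all clusters. They were Mest at 4.68-fold, Meg3 at 3.31-fold, Peg3 and Plagl1 at 2.90-fold each, Grb10 at 2.65-fold and Cdkn1c at 2.45-fold. The call of Grb10 ended with the spread of each array as a covariate, at a log2 difference of -0.99.

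Ndn had a course of its own. It was 8.80 ± 0.15 in week 3 and 8.78 ± 0.18 in week 6, and 7.89 ± 0.26 in week 2 and 7.80 ± 0.22 in week 8 (SD, n = 6, and n = 5 in week 2). The order of the weeks was 1, 3, 6, 2, 8, and neighbours overlapped except between weeks 1 and 3 and between weeks 6 and 2. From week 2 to week 3 it was 1.88-fold higher (adjusted p = 2.05e-07), and from week 6 to week 8 it was 1.98-fold lower (adjusted p = 6.33e-08). Arrays did not overlap in either comparison, as held for 12.7% of all clusters in the higher direction in the earlier step and for 11.5% in the lower direction in the later step. Both differences were just under 2-fold, and the later one was called when week 6 replicate 3, week 8 replicate 3 or week 8 replicate 5 was left out, at log2 differences of -1.02 to -1.05. With the array spread as covariate, the earlier difference shrank to 0.57 (limma adjusted p = 0.0282). The later one was -1.06 with this covariate (limma adjusted p = 3.48e-09).

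The order of the weeks in the other genes also started from week 1. Week 1 lay above the next week without overlap for Meg3, Plagl1, Mest, Peg3 and Grb10 as for Ndn, and with overlap for Dlk1 and Cdkn1c. Below week 1, every neighbouring pair of weeks overlapped in these 7 genes. Week 3 came second in Plagl1, Mest, Cdkn1c and Grb10, and week 6 in Meg3 and Peg3. All 8 genes passed an F test over the 5 weeks (adjusted p of 0.00294 or less), as did 91.3% of all transcript clusters.

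From week 3 on, Meg3 averaged 9.08 ± 0.28, 9.32 ± 0.55 and 9.30 ± 0.59 (SD, n = 6) in weeks 3, 6 and 8. Grb10 was 7.74 ± 0.31, 7.68 ± 0.44 and 7.40 ± 0.42 at these ages, and Dlk1 was 7.49 ± 0.23, 7.48 ± 0.13 and 7.44 ± 0.11 (SD, n = 6). No step of these 3 genes after week 2 passed the adjusted p with the values as deposited. Under quantile normalization, Dlk1 passed from week 2 to week 3, at a log2 difference of -0.55 (limma adjusted p = 0.0161).

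Mest, Plagl1 and Cdkn1c were lower at each of these ages than at the one before, as means. Mest was 8.76, 7.93 and 7.41 in weeks 3, 6 and 8, Plagl1 was 7.71, 7.16 and 6.93, and Cdkn1c was 8.95, 8.33 and 8.17. Of the 6 steps, those of Mest and Cdkn1c from week 3 to week 6 passed the adjusted p. Neither did with the array spread as covariate. The arrays of successive weeks overlapped in all 6. The step of Mest from week 6 to week 8 passed with this covariate, at a log2 difference of -0.79 (limma adjusted p = 0.00801). It also passed without week 6 replicate 2, at -0.71 (limma adjusted p = 0.0479). Peg3 had its lowest mean in week 3, at 7.50 ± 0.21, and was 8.08 ± 0.34 in week 6 and 7.88 ± 0.50 in week 8 (SD, n = 6).

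Meg3 and Dlk1 lie in the same imprinted domain on chromosome 12 and are expressed from opposite parental copies. Dlk1 spans chr12:109452485-109463336 and Meg3 spans chr12:109540996-109571729, 77.7 kb further on. Since levels of different clusters cannot be set against each other, only the change over age of their difference within an array was tested. The difference in log2 signal, Meg3 minus Dlk1, ranged from 2.43 to 3.55 in week 1 and from 0.43 to 1.25 in week 2. The ranges did not overlap, and the difference fell by 1.99, so that Meg3 fell 3.99-fold more than Dlk1.

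**Figure D3:**
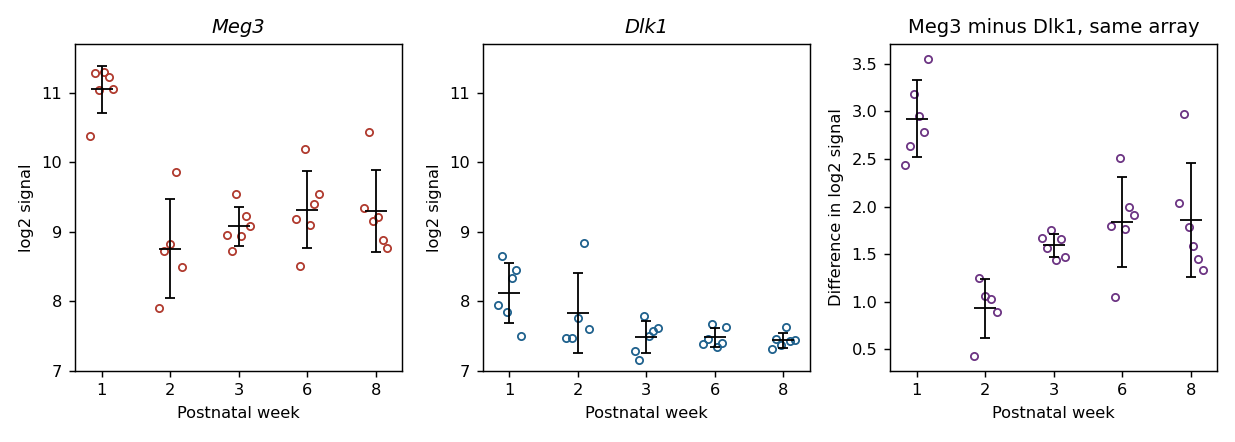
The first panels plot the log2 signals of Meg3 and Dlk1 by postnatal week and the last panel their difference within each array, with circles for arrays and bars for mean and SD. The difference was largest in week 1 (2.43 to 3.55) and smallest in week 2 (0.43 to 1.25).

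A two-sided exact permutation test over arrays gave p = 0.00216 for weeks 1 and 2, the smallest that 924 splits allow, and 0.00505 after adjustment over the 7 comparisons. Leaving out week 2 replicate 4 gave 462 splits and the same adjusted value. From week 2 to week 3 the difference rose by 0.66, to a range of 1.43 to 1.75 (exact permutation, adjusted p = 0.00505). It was then 1.84 ± 0.47 in week 6 and 1.86 ± 0.60 in week 8 (SD, n = 6), and neither step passed (adjusted exact permutation p = 0.321 and 0.939). Without week 6 replicate 2, the step from week 3 to week 6 was 0.40 with an adjusted p of 0.00379. Against week 1, the difference was 1.06 lower in week 8 on the log2 scale, a 2.09-fold change (adjusted exact permutation p = 0.0152).

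Beyond Meg3, the same strand of the domain gives rise to further maternally expressed non-coding RNAs and to a long row of microRNAs. Rian, the next such RNA, fell 3.02-fold from week 1 to week 2 and was 3.77-fold lower in week 8 (limma adjusted p = 5.86e-10 and 1.44e-10). Clusters for 39 microRNA hairpins with a symbol of their own lay between Meg3 and Dio3, a stretch chosen after its values were seen. Of these, 14 (35.9%) were called lower and none higher in week 2 against week 1. In week 8, 15 (38.5%) were lower and none higher.

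All 14 lay among the 29 clusters that start at Mir379, and none among the 10 before it. Of 261 microRNA clusters elsewhere in the genome, 8 (3.07%) were called lower and 6 higher in week 2. Clusters of this stretch are neighbours and are not independent, and probes on a hairpin may read the precursor or the host transcript as well as the microRNA. The mature sequences of the 4 with the largest falls are shown, with the seed (bases 2 to 8) in capitals. For Mir487b only the 5p arm is shown.
mmu-miR-380-5p: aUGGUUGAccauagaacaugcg
mmu-miR-380-3p: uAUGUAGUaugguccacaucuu
mmu-miR-487b-5p: uGGUUAUCccuguccucuucg
mmu-miR-382-5p: gAAGUUGUucgugguggauucg
mmu-miR-382-3p: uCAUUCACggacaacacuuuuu
mmu-miR-377-5p: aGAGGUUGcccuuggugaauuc
mmu-miR-377-3p: aUCACACAaaggcaacuuuugu
No seed was shared among these arms. Mir382 ranged from 5.77 to 7.15 in week 1 and from 4.11 to 5.04 in week 2, and fell 4.43-fold (adjusted p = 1.48e-10). Mir487b fell 3.73-fold, Mir377 3.72-fold and Mir380 3.69-fold. In week 8 they were still 3.51-fold, 3.14-fold, 2.69-fold and 4.17-fold below week 1, in the same order. The week 2 means of all 14 clusters called lower were dim, from 2.37 in Mir495 to 5.26 in Mir487b. Those of Mir380 and Mir377 were 3.42 and 3.83. The median signals of the week 2 arrays over all clusters were 6.18 to 6.24.

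**Figure D4:**
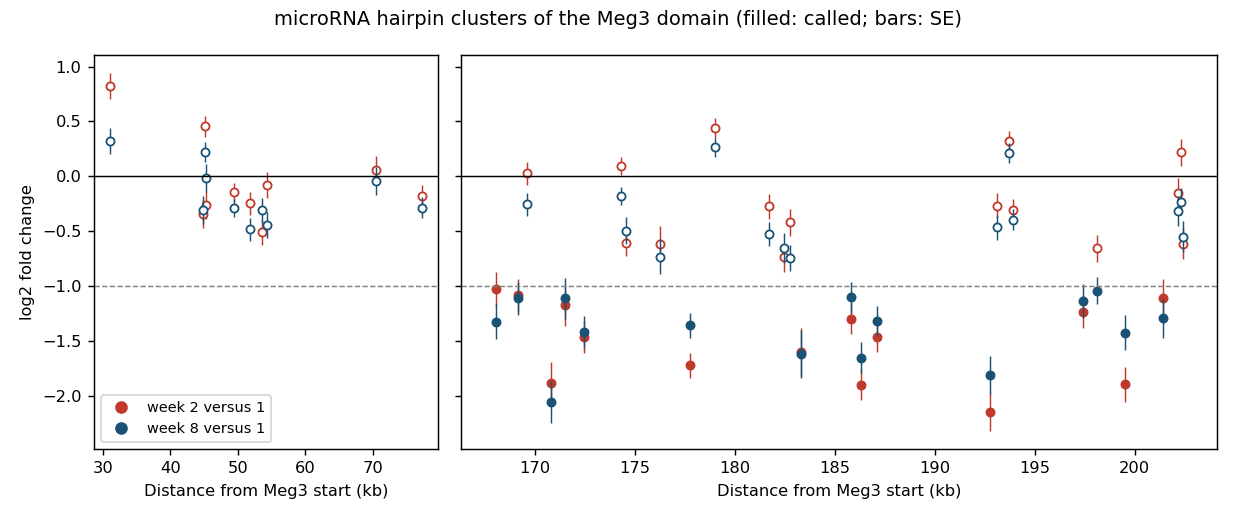
The log2 fold change of the 39 microRNA hairpin clusters beyond Meg3 is plotted against their distance in kb from the Meg3 start, for week 2 (red) and week 8 (blue) against week 1, with bars for the SE and the axis broken between the panels. Called clusters are filled and all lie in the right-hand group, which starts at 168 kb.

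Of the other genes that share an imprinted domain with one of the 9, 19 were measured. In week 2 against week 1, Zim1, a zinc finger gene next to Peg3, was 3.56-fold lower, with Rian and Igf2 also lower, and Klf14, near Mest, was 2.04-fold higher. The other 15 were not called, Rtl1, Dio3, Copg2, Usp29 and Magel2 among them, and the median log2 difference was 0.21. Igf2, the fetal growth factor whose gene shares a domain with H19, fell 2.95-fold from week 1 to week 2 and was 5.04-fold lower in week 8. Unlike the 8 genes, Igf2 was called lower from week 3 to week 6, at 2.27-fold, and the difference between the genes was not tested.

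Among 28 imprinted genes of other domains, 9 were called lower and 1 higher in week 2. Nnat, which encodes neuronatin, fell 4.57-fold, Ppp1r9a 3.15-fold and Sgce, which encodes a sarcoglycan, 3.14-fold. Rasgrf1, an exchange factor for Ras expressed from the paternal copy, was 3.45-fold higher. In week 8, 6 were lower and 1 was higher. The median log2 differences over this list were -0.36 and -0.33.

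Growth genes that are not imprinted were compared as a list of 10. Only Mdk, which encodes the growth factor midkine, was called in week 2, at 2.26-fold lower, and the median log2 difference was -0.41. Of 24 cell division genes none was called lower in week 2 and 2 were higher, and in week 8, 4 were higher. Of the 5 other cyclin-dependent kinase inhibitors measured, Cdkn2b and Cdkn2a were 3.17-fold and 2.07-fold higher in week 2, the opposite direction to Cdkn1c.

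Grb10 and Igf2 both act on the insulin and IGF receptors, so 19 genes of that pathway were followed. Igf1, the main growth factor of postnatal life, fell 4.22-fold from week 1 to week 2, the binding protein gene Igfbp5 2.28-fold and the docking protein gene Irs1 2.08-fold. Grb7, a relative of Grb10, was 3.36-fold higher and still 3.75-fold higher in week 8. From week 2 to week 3, 5 were called higher and none lower, all of them IGF binding proteins, with Igfbp4 at 3.09-fold and Igfbp5 at 2.81-fold. From week 3 to week 6, Igfbp4 fell by 1.93 on the log2 scale and Igfbp3 2.97-fold among 4 called lower, and Grb14 was 2.00-fold higher. Insr, the insulin receptor, was 2.12-fold lower in week 8 than in week 6.

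Dlk1 acts on Notch signalling, of which 16 genes were followed. In week 2 against week 1, Dner, a Notch ligand of neurons and glia, was 2.72-fold lower and Jag2 2.09-fold higher, and the other 14 were not called. From week 3 to week 6, Notch3 and Notch4 each fell 2.97-fold and 2.96-fold, Hey2, a Notch target, 2.91-fold, and Jag2 2.50-fold. The log2 difference of Dlk1 over that step was -0.0042. Of 12 endothelium markers, 9 were called lower in the same step, with a median log2 difference of -1.23, and their part in the fall of the Notch genes was not tested.

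Marker genes moved with the fall of week 2. Of 18 fibroblast and matrix genes, 9 were called lower from week 1 to week 2, with a median log2 difference of -0.93, and 4 in week 8, with -0.71. Of 25 striated muscle genes, 24 were lower in week 2, with a median of -3.48, and 5 in week 8, with -0.37. Photoreceptor genes were lower in 17 of 18 in both weeks, with medians of -3.23 and -2.19, and genes of the retinal pigment epithelium in 11 of 12, with -3.60 and -2.04. Surface epithelium genes, such as keratins, were higher in 16 of 16 in both weeks. The part of these tissues in the fall of the imprinted genes was not tested.

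**Figure D5:**
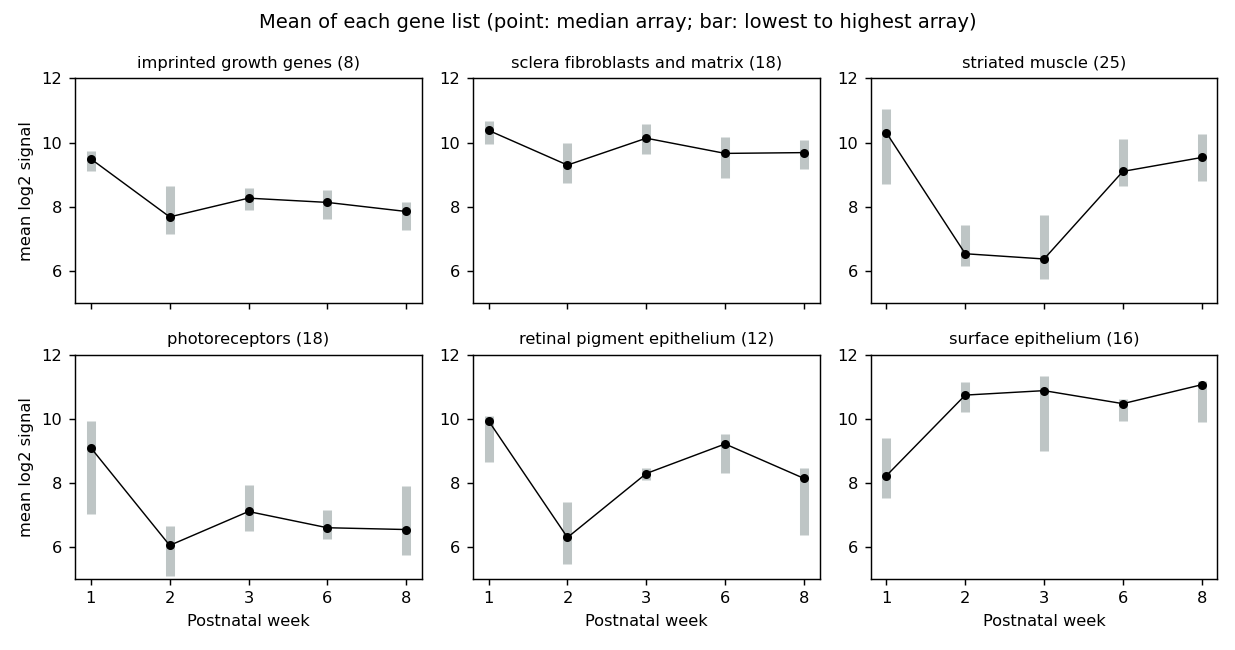
The mean log2 signal of each gene list is plotted by postnatal week, with a point for the median array, a grey bar from the lowest to the highest array and the number of genes in parentheses. The imprinted growth genes and the fibroblast and matrix genes were highest in week 1, muscle genes were low in weeks 2 and 3 only, and surface epithelium genes were lowest in week 1.

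The later courses differed between these lists. Striated muscle genes were called higher in 24 of 25 from week 3 to week 6. Pigment epithelium genes were called higher in 11 of 12 from week 2 to week 3 and lower in 8 of 12 from week 6 to week 8. Photoreceptor genes were called higher in 13 of 18 from week 2 to week 3, and none was called from week 6 to week 8. Fibroblast and matrix genes were called higher in 5 of 18 from week 2 to week 3 and lower in 2 of 18 from week 3 to week 6. The part of these tissues in the later courses of the 8 imprinted genes was not tested.

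In weeks 2, 3 and 6, 1 array was the highest of its week in at least 7 of the 8 genes. Week 2 replicate 5 was the highest of its week in 8 of 8, while it was the highest in 21.1% of all clusters. Week 3 replicate 3 and week 6 replicate 3 were each the highest in 7 of 8, against 24.9% and 19% of all clusters. Week 3 replicate 2 and week 8 replicate 6 were each the lowest in 7 of 8, against 26.5% and 16.4%. In weeks 1 and 8 the highest array was less shared, with week 1 replicate 2 the highest in 4 of 8 and week 8 replicates 2 and 4 in 3 each.

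The arrays at the ends were compared with those of the means of the marker lists named below. There were 80 ends in all (8 genes, 5 weeks, highest and lowest). Lens, adipocyte, macrophage and leukocyte, myogenic progenitor and Schwann cell lists were left out of this comparison. The macrophage and leukocyte mean had the same highest and lowest arrays as the mean of the 8 genes in weeks 1, 3 and 6. In weeks 2 and 8 both ends differed. The myogenic progenitor mean shared the highest array in all 5 weeks, but the lowest in week 1 only. The adipocyte mean shared the highest array in weeks 1, 3, 6 and 8 and the lowest in weeks 1 and 8. The lens mean shared the highest in weeks 2, 3, 6 and 8 and the lowest in week 3. The Schwann cell mean shared only the highest of week 6 and the lowest of week 8. The 8 genes shared 56 (70.0%) with the fibroblast and matrix mean, 37 (46.2%) with striated muscle and as many with endothelium, 36 (45.0%) with pigment epithelium, 20 (25%) with photoreceptors, 15 (18.8%) with the inner retina and 6 (7.5%) with surface epithelium. The same shares over the 11414 genes above the median signal were 26.4%, 21.0%, 23.4%, 23.8%, 24.4%, 21.3% and 28.3%. Plagl1, Cdkn1c and Peg3 each shared 9 of 10 ends with the fibroblast and matrix mean, Meg3 8, Grb10 7, Mest 6, Dlk1 5 and Ndn 3. The ends of different genes come from the same arrays and are not independent, so no test was made.

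Genes whose weekly means followed each of the 8 most closely were taken from 11406 others, by the root mean square of the differences between centred weekly means (5 weeks). The closest to Plagl1 were Serpine3 (0.040), Syt11 and Kdelr3, to Cdkn1c Trib2 (0.036), Tspan2 and Scg5, and to Ndn Tpgs2 (0.047), Mageh1 and Purg. Grb10 was followed most closely by Ntm (0.064), Wdr31 and Grm7, and Dlk1 by B3gat1 (0.088), Serf1 and Plcl2. The closest to Mest were Syt1 (0.15), which encodes a synaptic vesicle protein, Elovl4 and Mak, and to Meg3 Pcdh15 (0.15), Cacna2d4 and Gpr37. Elovl4, Mak, Pcdh15 and Cacna2d4 are known from photoreceptors. Mest and Meg3 each shared 3 of 10 array ends with the photoreceptor mean, and a link to these cells was not tested. Peg3 was nearest to Nrk (0.17), Postn, which encodes the matrix protein periostin, and Zfp385b.

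Among the 8 genes themselves, Meg3 and Peg3 had the closest courses, with a root mean square difference of 0.14, followed by Plagl1 and Cdkn1c with 0.16 and Plagl1 and Grb10 with 0.18. Meg3 and Peg3 lie on different chromosomes and are expressed from opposite parental copies. Courses are described over 5 weekly means, many of which share a high week 1.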

How the data were processed

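Total RNA of single sclerae was hybridised to Mouse Gene 1.0 ST arrays, 6 for each of 5 ages. The authors deposited log2 signals of 35556 transcript clusters. For their normalization, robust multiarray averaging with removal of batch effects by scan date is named in the study's methods, whereas GCRMA and Partek 6.5 are named in the notes on processing by the submitters. Which of these gave the values, and when each array was scanned, are not given in the sources used here. So batch could not be fitted, and such a removal can shrink the spread between arrays and with it the p-values. The number of arrays limits the precision.

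The values were used as deposited. A linear model with a mean for each week was fitted to every cluster over all 30 arrays (limma 3.58.1, R 4.3.3), variances were moderated, and p-values were adjusted by Benjamini and Hochberg within each of 7 comparisons over all clusters. Python 3.11.15 with pandas 2.3.3 was used for the exact permutation tests and sequences. Of the clusters, 21789 had 1 symbol, 1621 several and 12146 none. Names came from the platform annotation, and coordinates, promoters and microRNAs from RefSeq (GRCm38.p6). Simulated data were independent normal values with each cluster's own mean and spread. In them, 195 of 200 planted changes of 1.5 on the log2 scale were called, with 2 false calls. The exact relations between arrays were not simulated, so these rates need not hold for the real arrays.

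The genes, lists and tests were chosen with earlier results of these data known. From each list, counts and at most the 4 called genes with the largest change in a comparison are named. The uncalled neighbours Rtl1, Dio3, Copg2, Usp29 and Magel2 and the microRNA stretch were named after their values were seen. Alternatives were 1-symbol clusters, clusters above the median signal, array weights, a replicate block, quantile normalization, median centring, unmoderated contrasts, a fit of the 2 weeks compared, calls on adjusted p alone, the array spread as covariate, the mean of a gene's clusters and each array left out. The fit without the exact relations was added after seeing the data.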

Additional observations from a re-analysis of the deposited data

Results flagged for a closer look

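In 4 of the 40 groups of a gene and a week, the array at 1 end stood far from the others by Dixon's test, which chance gives in about 1 of 20. Dlk1 read 8.83 in week 2 replicate 5, with the next array at 7.76. Meg3 read 10.38 in week 1 replicate 1, below the next at 11.04, and 10.43 in week 8 replicate 2, above the next at 9.35. Plagl1 read 6.20 in week 8 replicate 6, below the next at 6.96.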

How the results depend on the processing

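The 7 genes called lower in week 2 and in week 8 against week 1 kept their calls in every alternative, each array left out included. No called value of any of the 8 genes changed sign. Counts at other steps moved. On adjusted p alone, 4 genes rose from week 2 to week 3, 3 differed between weeks 3 and 6, 1 between weeks 6 and 8, and 8 were lower in week 3 than in week 1. With the spread of each array as covariate, 0 were called from week 2 to week 3 and 1, Ndn, from week 6 to week 8. The spread did not overlap between weeks 2 and 3, so it cannot be told apart from age in that step. Of the 4 genes that rose from week 2 to week 3, Ndn alone kept its limma adjusted p with this covariate (0.0282). Mest, Plagl1 and Cdkn1c came to 0.856, 0.946 and 0.458, and Cdkn1c to 0.201 under quantile normalization. With each array left out in turn, the counts were 1 to 2 from week 2 to week 3, 0 to 1 from week 6 to week 8 and 4 to 5 for week 3 against week 1, where quantile normalization and the array spread also gave 5. The replicate block left all counts as they were, 7 in week 2 against week 1 and 1 from week 2 to week 3, and changed no call. Deviations of arrays with the same replicate number had correlations from -0.181 to 0.462, not all over 0.1, so the numbers were not taken as pairs. The array weights changed no call but could not be read as a check, because week 2 replicate 4, equal to a mean, took nearly all the weight.

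The differences that changed sign were all uncalled ones. From week 6 to week 8, Dlk1 and Meg3 came to 0.0434 and 0.0681 under median centring and to 0.0024 and 0.0060 under quantile normalization. From week 3 to week 6, Dlk1, Grb10 and Ndn came to 0.0761, 0.0299 and 0.0930 under quantile normalization. With the array spread as covariate, Meg3 and Grb10 came to -0.00069 and -0.28 from week 2 to week 3, and Dlk1, Plagl1, Mest, Grb10 and Ndn to 0.20, 0.016, 0.14, 0.45 and 0.25 from week 3 to week 6. With each array left out, Dlk1 ranged from -0.0709 to 0.0549, Grb10 from -0.189 to 0.0763 and Ndn from -0.0866 to 0.0322 from week 3 to week 6, Meg3 from -0.24 to 0.16 from week 6 to week 8 and Peg3 from -0.20 to 0.13 from week 2 to week 3. The difference of Meg3 and Dlk1 ranged from -0.198 to 0.160 from week 6 to week 8 and from 0.109 to 0.403 from week 3 to week 6. The cause was not tested. A test of H19 against Igf2 was not run, as H19 had no cluster of its own.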
